A study of Mus musculus with 12 samples.

Results

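The bone morphogenetic protein (BMP) pathway and Id genes comprise 9 genes, listed by symbol: the ligands *Bmp2*, *Bmp4* and *Bmp7*, the type I receptors *Bmpr1a* and *Bmpr1b*, and the target genes *Id1*, *Id2*, *Id3* and *Id4*. All 9 were among the 18180 genes of the deposited expression table. BMP ligands are secreted dimers that bind type I and type II receptor kinases, and the active type I receptor phosphorylates the receptor-regulated Smads, which enter the nucleus with Smad4. The Id genes are direct targets of these Smads, and the Id proteins lack a DNA-binding region and hold E proteins, the partners of many basic helix-loop-helix (bHLH) factors, away from DNA. In the developing brain BMP signaling favors astrocyte fate over oligodendrocyte fate, and in glioblastoma (GBM) it has been studied as a signal for differentiation of stem-like tumor cells.

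The libraries came from 3 mouse GBMs, T3, T4 and T5, each sorted into 4 populations named PDGFR+, PDGFR-, Gal1+ and Gal1-, so that each population had 3 libraries and the series 12. The tumors arose after a Cre lentivirus was injected into the brains of adult mice that carried, among other alleles, conditional human EGFR, conditional luciferase and constitutive loss of *Cdkn2a*, on a mixed background of C57Bl/6J, 129S4, FVBN/J and Balb/cJ by the labels, to which the study's methods add SJL, and all 4 populations share this genotype. They were taken at end stage, and the virus could recombine any cell that it entered. Cells were stained for EGFR together with either PDGFR or Galectin-1, so each tumor gave a PDGFR pair and a Gal1 pair, and the 4 populations of a tumor are not independent animals.

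Recovered reads per library ranged from 9851175 to 24117541. The row named *Egfr* is the mouse gene and not the transgene, and gene-level values of *Cdkn2a* cannot show whether the deleted part was read, so these rows check nothing. Across all genes, the first principal component (58.5% of the variance) placed the PDGFR- library of T5 at 82.4, within the Gal1+ libraries (63.8 to 120) and far from the PDGFR- libraries of T3 and T4 (-13.5 and -16.8). Most member differences that rest on the PDGFR- population are therefore given with and without that library. Although the sort was described as CD45-, the summed level of 12 pan-leukocyte markers reached 3272 to 4688 CPM (reads of a gene scaled to the library total) in Gal1+, 743 to 1775 in PDGFR+ and 811 to 3700 in PDGFR- libraries, against 99.5 to 256 in Gal1- libraries, with none of the 12 at or under a floor of 3 reads.

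Levels are given as log2 CPM and differences as log2 fold changes of the first population over the second, with the standard error (SE), from a limma fit to all genes with the tumor as a block. A gene was called where its p, adjusted by the Benjamini-Hochberg method over the whole table, fell under 0.05. Per kilobase of exon, *Id2* had the highest mean level over the 12 libraries, at 5.53 log2 CPM per kilobase. *Bmp7* at 3.58 and *Bmpr1a* at 3.37 came next on this scale, ahead of *Id3* at 2.63 and *Id1* at 2.15. *Bmp4* at 0.71, *Bmp2* at 0.35, *Id4* at 0.28 and *Bmpr1b* at -0.70 were lowest. Every member lay above 3 reads in every library, and the smallest value was 8.33 recovered reads of *Bmpr1b* in the Gal1+ library of T4.

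In Gal1+ against Gal1- cells, 5 of the 9 members were called, beside 58.2% of all genes, so the count of calls among them is no higher than that of the table. *Id2* was higher in Gal1+ cells (28.9% of all genes were called higher), and *Bmp4*, *Bmp7*, *Bmpr1a* and *Bmpr1b* were lower (29.3% called lower). The median log2 fold change was -0.53 over the members and -0.032 over all genes. In PDGFR+ against Gal1+ cells, 5 members were called beside 38% of all genes, *Bmp4*, *Bmp7*, *Bmpr1b* and *Id3* higher (20.9%) and *Id2* lower (17%), with a median of 0.58 over the members and 0.0056 over all genes. These 2 comparisons share the Gal1+ libraries. In a sorted bulk library, fewer cells of a type and less RNA per cell cannot be told apart.

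**Figure D1:**
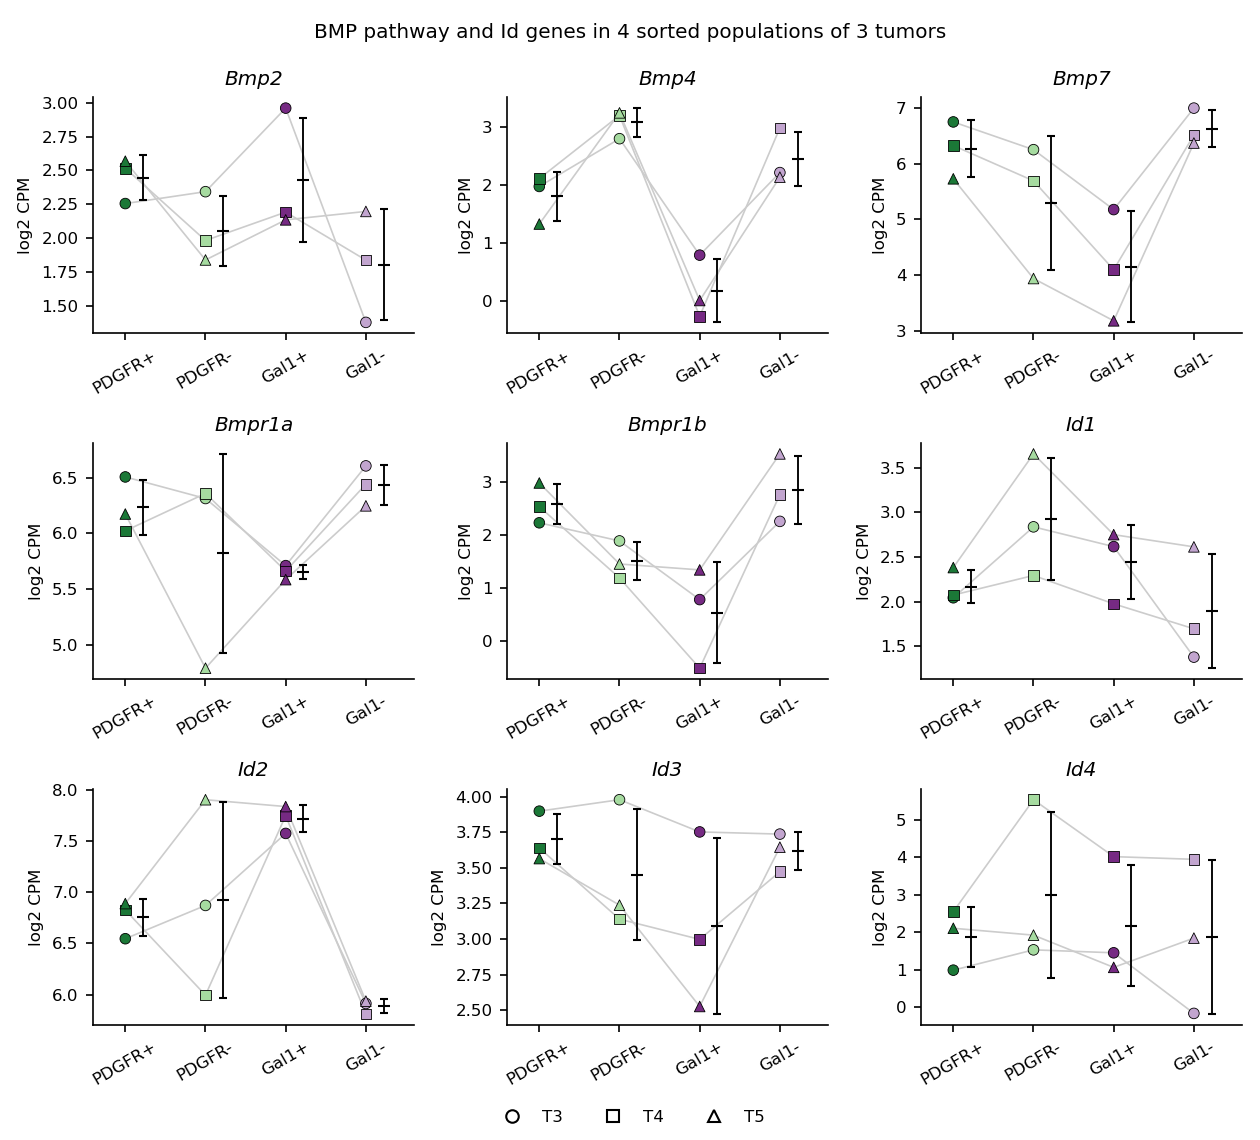
Log2 CPM (vertical axes, on a separate scale for each gene) of the 9 genes in the 4 sorted populations (horizontal axis). Symbols are tumors T3 (circle), T4 (square) and T5 (triangle), gray lines join the libraries of a tumor, and bars are the mean ± SD of 3 tumors. *Bmp4*, *Bmp7* and *Bmpr1b* have their lowest mean in Gal1+ cells, *Id2* has its highest there, and *Id4* is highest in T4 in each population.

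Promoters are shown for *Bmp4* and *Bmpr1a*, which were lower in Gal1+ than in Gal1- cells, and for *Id2*, which was higher, each with a single entry. *Bmpr1b* was lower as well, but it has 3 entries and they are not shown. Of the 9 members, 6 had an entry among RefSeq promoters of GRCm38.p6, a build other than that of the expression table, and *Bmp2*, *Bmp7* and *Id1* had none. Each sequence below is the 250 bases before the start, 5′ to 3′ on the gene's strand, with GGCGCC, a GC-rich sequence bound by the BMP Smads, in capitals. They lie at chr14:46390670-46390919 on the minus strand for *Bmp4*, chr14:34502547-34502796 on the minus strand for *Bmpr1a* and chr12:25096093-25096342 on the minus strand for *Id2*.
Bmp4: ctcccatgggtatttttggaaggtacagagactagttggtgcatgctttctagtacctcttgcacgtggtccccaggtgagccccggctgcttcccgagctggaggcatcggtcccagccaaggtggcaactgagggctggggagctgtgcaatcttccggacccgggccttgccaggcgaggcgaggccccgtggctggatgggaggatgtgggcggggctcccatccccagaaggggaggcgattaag
Bmpr1a: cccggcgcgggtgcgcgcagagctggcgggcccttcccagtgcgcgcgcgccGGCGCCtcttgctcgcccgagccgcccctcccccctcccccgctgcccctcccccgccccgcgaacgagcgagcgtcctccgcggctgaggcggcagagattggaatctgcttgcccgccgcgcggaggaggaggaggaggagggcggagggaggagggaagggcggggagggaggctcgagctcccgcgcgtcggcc
Id2: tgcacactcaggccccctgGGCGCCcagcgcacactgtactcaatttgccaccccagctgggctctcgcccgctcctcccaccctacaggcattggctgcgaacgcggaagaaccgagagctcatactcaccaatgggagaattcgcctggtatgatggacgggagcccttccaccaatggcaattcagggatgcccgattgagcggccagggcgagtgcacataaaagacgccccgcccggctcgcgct
GGCGCC, which reads the same on both strands, was found once in the promoters of *Bmpr1a*, *Id2* and *Id4* and in none of the entries of *Bmp4*, *Bmpr1b* and *Id3*. It was found in 9.59% of 32851 promoters of the same length. Sites outside these 250 bases were not searched, so absence here does not mean that a gene lacks one. The letters were thus present in 1 gene that was higher and 1 that was lower in Gal1+ cells. GTCT, the short Smad motif, was searched on both strands and was found in 82.9% of all promoters, among them those of *Bmp4* and *Id2*, and not in that of *Bmpr1a*.

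*Bmp4* was the ligand with the largest share of its variance between populations. It encodes a ligand that acts in dorsal patterning and in astrocyte differentiation. In T3, T4 and T5 its level was 0.79, -0.26 and 0.01 in Gal1+ libraries, from 10 to 29 recovered reads. It was 2.21, 2.98 and 2.14 in Gal1- libraries, 1.98, 2.11 and 1.33 in PDGFR+ libraries and 2.80, 3.20 and 3.24 in PDGFR- libraries. All 3 Gal1+ libraries lay below all 9 others. The gene overlaps *Gm15217* and *Gm15222* on the opposite strand in GENCODE, the strand setting of the counting is not given, and 5 of its 12 recovered read values were whole, so whether reads of these genes were counted together is not known. The log2 fold change of Gal1+ over Gal1- cells was -2.26 (SE 0.34, adjusted p = 0.000407), a 4.80-fold lower level, and it was lower in 3 of 3 tumors. PDGFR+ cells exceeded Gal1+ cells by 1.62 (SE 0.34, adjusted p = 0.00662) and PDGFR- cells exceeded them by 2.90 (SE 0.34, adjusted p = 0.00411), each in 3 of 3 tumors. In this last comparison 20.1% of all genes were called (13.2% higher), as were 2 of the 9 members, and *Bmp4* had an adjusted p of 0.00476 without the PDGFR- library of T5 and of 0.0814 without T4.

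The order of *Bmp4* was PDGFR-, Gal1-, PDGFR+ and Gal1+, and its upper 3 populations were not separated by a call. In PDGFR+ against PDGFR- cells limma called 0 of 18180 genes (percent called 0), while 2137 genes, 11.8%, had an unadjusted p under 0.05, as did 4 of the 9 members, *Bmp4*, *Bmp7*, *Bmpr1b* and *Id1*. *Bmp4* had a log2 fold change of -1.27 in PDGFR+ over PDGFR- cells (SE 0.34, adjusted p = 0.254), with lower values in 3 of 3 tumors and no overlap between the groups, and of -1.03 without the PDGFR- library of T5. Markers of mature oligodendrocytes (*Mbp*, *Mog*, *Mag*, *Mobp* and *Opalin*) moved with *Bmp4*. Their summed level was 292 to 429.9 CPM in PDGFR-, 133 to 227 in Gal1-, 117 to 152 in PDGFR+ and 91.6 to 101 in Gal1+ libraries, and *Opalin* had 0 to 4 reads in Gal1+ libraries. All 5 were called lower in Gal1+ than in Gal1- cells and all 5 higher in PDGFR- than in Gal1+ cells. In PDGFR+ against Gal1+ cells, where *Bmp4* was also called, 1 of the 5 was called higher, with a median log2 fold change of 0.52. All 6 markers of oligodendrocyte progenitors were called higher there, with a median of 2.55. Over the 12 libraries, which share tumors and populations, the Pearson correlation of *Bmp4* with the log2 summed level was 0.85. It was 0.54 with that of the progenitor markers. The part of these cells in the *Bmp4* result was not tested.

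**Figure D2:**
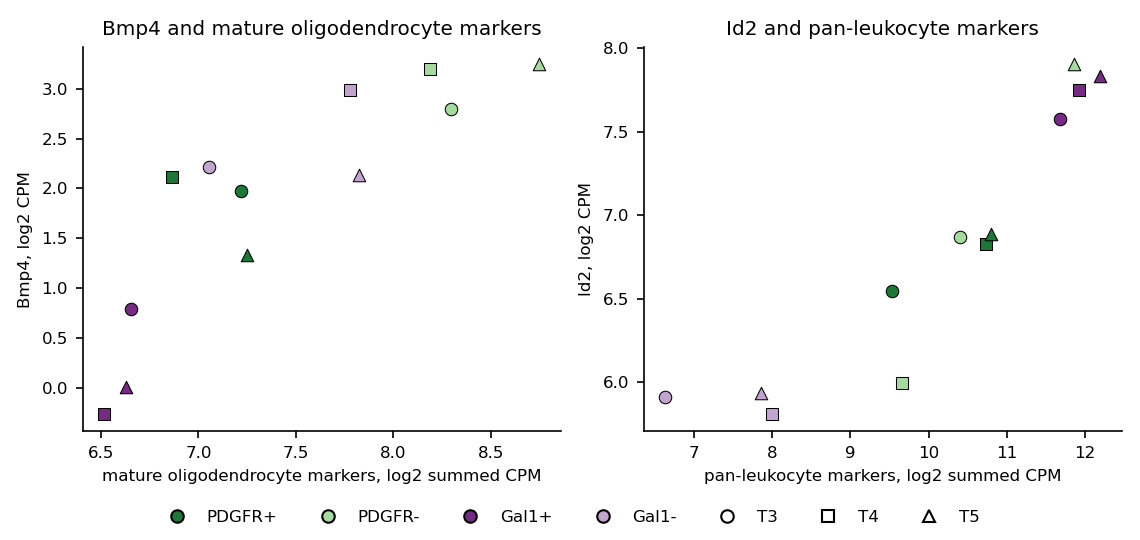
Each point is 1 of 12 libraries, with color for the population and symbol for the tumor. Left, log2 CPM of *Bmp4* against the log2 summed CPM of 5 mature oligodendrocyte markers; right, log2 CPM of *Id2* against that of 12 pan-leukocyte markers. *Bmp4* has its highest mean in PDGFR- libraries and is lowest in the 3 Gal1+ libraries, and the PDGFR- library of T5 lies with the Gal1+ libraries in the right panel.

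*Bmp7*, a ligand expressed in the meninges and in kidney and eye development, was the most abundant ligand per kilobase. Of its 12 recovered read values 4 were whole, and no gene overlaps it in GENCODE. Its level in T3, T4 and T5 was 5.18, 4.10 and 3.19 in Gal1+ libraries and 6.99, 6.51 and 6.37 in Gal1- libraries. It was 6.74, 6.32 and 5.73 in PDGFR+ libraries and 6.25, 5.69 and 3.94 in PDGFR- libraries. Gal1+ libraries lay below all Gal1- and all PDGFR+ libraries and overlapped the PDGFR- libraries through T5. The log2 fold change of Gal1+ over Gal1- cells was -2.47 (SE 0.30, adjusted p = 0.000134), lower in 3 of 3 tumors. PDGFR+ cells exceeded Gal1+ cells by 2.11 (SE 0.30, adjusted p = 0.00173), also in 3 of 3 tumors. PDGFR- cells exceeded Gal1+ cells by 1.14 (adjusted p = 0.0302), or by 1.52 (adjusted p = 0.00513) without the PDGFR- library of T5, and this call was lost without the tumor block (adjusted p = 0.265), without the mean-variance trend (0.0513) and without T3 or T4 (0.128 and 0.243).

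In PDGFR- against Gal1- cells, where 23.1% of all genes were called, *Bmp7* was lower by a log2 fold change of -1.33 (adjusted p = 0.0137), and by -0.95 (adjusted p = 0.0459) without the PDGFR- library of T5. This call was lost without the tumor block (adjusted p = 0.192), in a fit of only these 2 populations (0.0814) and without tumor T5 (-0.78, adjusted p = 0.0699). PDGFR+ over PDGFR- cells gave 0.97 (SE 0.30, adjusted p = 0.302), or 0.59 without that library. The summed level of 6 oligodendrocyte progenitor (OPC) markers, *Pdgfra* among them, was 3061 to 3917 CPM in Gal1-, 2477 to 3791 in PDGFR+, 695 to 2644 in PDGFR- and 358 to 1178 in Gal1+ libraries, and all 6 were called lower in Gal1+ than in Gal1- cells. The Pearson correlation of *Bmp7* with this level over the 12 libraries was 0.99. It was 0.93 with the log2 summed level of 8 astrocyte markers and -0.81 with that of the pan-leukocyte markers. The part of OPC-like or other cells in the *Bmp7* result was not tested.

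*Bmp2*, a ligand close to *Bmp4* in sequence, was called in none of the 6 comparisons. Its level was 2.96, 2.19 and 2.14 in Gal1+, 1.38, 1.84 and 2.20 in Gal1-, 2.26, 2.52 and 2.57 in PDGFR+ and 2.34, 1.98 and 1.84 in PDGFR- libraries of T3, T4 and T5. The Gal1+ and Gal1- libraries overlapped, with T5 of the Gal1- libraries above T4 and T5 of the Gal1+ libraries. The log2 fold change of Gal1+ over Gal1- cells was 0.62, with a 95% interval of -0.046 to 1.29 (adjusted p = 0.0991), while that of *Bmp4* was negative with an interval of -3.03 to -1.50. Between PDGFR+ and Gal1+ cells the value was 0.018, with an interval of -0.65 to 0.69, and its sign depended on the scaling.

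**Figure D3:**
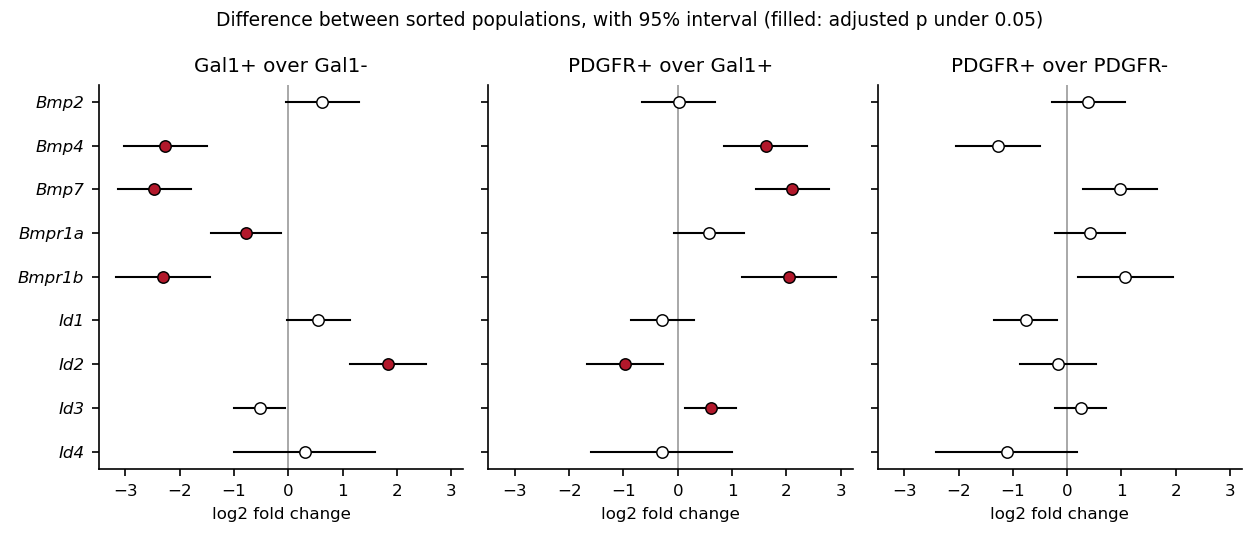
Log2 fold changes (horizontal axes) of the 9 genes in 3 comparisons, Gal1+ over Gal1-, PDGFR+ over Gal1+ and PDGFR+ over PDGFR-. Points are limma estimates, lines are 95% intervals, and filled points have an adjusted p under 0.05. There are 5 filled points in the first panel, 5 in the second and 0 in the third.

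Both type I receptors were lower in Gal1+ than in Gal1- cells. *Bmpr1b*, whose product mediates BMP signals in neural progenitors and cartilage, was at 0.78, -0.51 and 1.34 in Gal1+ libraries of T3, T4 and T5. It was at 2.26, 2.77 and 3.53 in Gal1-, 2.23, 2.54 and 2.99 in PDGFR+ and 1.89, 1.19 and 1.46 in PDGFR- libraries. Gal1+ libraries lay below all Gal1- and PDGFR+ libraries and overlapped the PDGFR- libraries. The log2 fold change of Gal1+ over Gal1- cells was -2.31 (SE 0.39, adjusted p = 0.000751) and that of PDGFR+ over Gal1+ cells was 2.05 (SE 0.39, adjusted p = 0.00429), each in the same direction in 3 of 3 tumors. PDGFR- cells were lower than Gal1- cells by a log2 fold change of -1.34 (adjusted p = 0.0354), a call that was lost without the tumor block (adjusted p = 0.114), in a fit of only these 2 populations (0.0884), without T3, T4 or T5 (0.0527, 0.0708 and 0.341) and without the PDGFR- library of T5 (-0.997, adjusted p = 0.159). PDGFR+ over PDGFR- cells gave 1.07 (adjusted p = 0.346), with no overlap between the groups, and 0.73 without that library. PDGFR- over Gal1+ cells gave 0.97 (adjusted p = 0.101), and 1.32 (adjusted p = 0.0358) without that library. The Pearson correlation of *Bmpr1b* with the log2 summed level of 6 neuron markers over the 12 libraries was 0.93. That level was 27.7 to 44.3 CPM in Gal1-, 22.4 to 34.0 in PDGFR+, 12.5 to 28.7 in PDGFR- and 5.81 to 13.6 in Gal1+ libraries. Of the 6 neuron markers, 2 were called lower in Gal1+ than in Gal1- cells. The correlation of *Bmpr1b* was 0.71 with the log2 summed level of the OPC markers and -0.71 with that of endothelial markers. The part of these cells in the *Bmpr1b* result was not tested.

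*Bmpr1a*, the more widely expressed receptor, was at 5.71, 5.66 and 5.58 in Gal1+, 6.60, 6.44 and 6.25 in Gal1-, 6.51, 6.02 and 6.17 in PDGFR+ and 6.31, 6.36 and 4.79 in PDGFR- libraries of T3, T4 and T5. The Gal1+ libraries lay close together (SD 0.063) and below the Gal1- and the PDGFR+ libraries, and the PDGFR- library of T5 was the lowest of all 12. *Gm17110* overlaps it on the opposite strand, with the same doubt as for *Bmp4*, and 9 of its 12 read values were whole. The log2 fold change of Gal1+ over Gal1- cells was -0.78 (SE 0.29, adjusted p = 0.0401), lower in 3 of 3 tumors. This call was lost without the tumor block (adjusted p = 0.0861), without the mean-variance trend (adjusted p = 0.0601) and without T3 or T4 (adjusted p = 0.200 and 0.0811). PDGFR+ over Gal1+ cells gave 0.58 (adjusted p = 0.135), and it was called when the PDGFR- library of T5 was left out of the fit (adjusted p = 0.00516), without tumor T5 (0.0454) and in a fit of only these 2 populations (0.0143). The PDGFR- library of T5 also set the sign in PDGFR+ over PDGFR- cells, at 0.41 with it and -0.049 without it. PDGFR- over Gal1+ cells gave 0.17 (adjusted p = 0.700) with it and 0.63 (adjusted p = 0.0101) without it. The correlation of *Bmpr1a* with the log2 summed level of 8 astrocyte markers was 0.93 over the 12 libraries. This level was 647 to 727 CPM in Gal1- and 196 to 324 in Gal1+ libraries, and 520 to 692 in PDGFR+ and 185 to 643 in PDGFR- libraries, with 4 of 8 markers called lower in Gal1+ than in Gal1- cells. The correlation of *Bmpr1a* was also 0.82 with the log2 summed level of the OPC markers and -0.76 with that of the pan-leukocyte markers. The part of these cells in the *Bmpr1a* result was not tested.

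Among the Id genes, *Id2* moved opposite to *Bmp4*, *Bmp7* and both receptors in Gal1+ against Gal1- cells. *Id2*, which is also needed for natural killer and other innate lymphoid cells, was at 7.57, 7.75 and 7.84 in Gal1+ libraries and at 5.91, 5.81 and 5.94 in Gal1- libraries of T3, T4 and T5. It was at 6.55, 6.83 and 6.89 in PDGFR+ and at 6.87, 5.99 and 7.90 in PDGFR- libraries. The Gal1+ libraries were above all Gal1- and PDGFR+ libraries, and the Gal1- libraries were below all 9 others. The log2 fold change of Gal1+ over Gal1- cells was 1.83 (SE 0.31, adjusted p = 0.000829), a 3.56-fold higher level, in 3 of 3 tumors. PDGFR+ cells were lower than Gal1+ cells by a log2 fold change of -0.97 (SE 0.31, adjusted p = 0.0358). This second call was lost without the tumor block (adjusted p = 0.0807), without the mean-variance trend (0.0563), after quantile normalization (0.0705) and without T3 or T5 (0.217 and 0.0501). *Id2* was also higher in PDGFR- than in Gal1- cells, by 1.04 (adjusted p = 0.0406), and by 0.60 (adjusted p = 0.137) without the PDGFR- library of T5. This call was also lost without the tumor block (adjusted p = 0.107), in a fit of only these 2 populations (0.119), without the mean-variance trend (0.0655), after centring (0.0527) and without T3 or T5 (0.184 and 0.329). PDGFR- over Gal1+ cells gave -0.80 (adjusted p = 0.0973), and -1.24 (adjusted p = 0.00614) without the PDGFR- library of T5.

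*Id2* followed the pan-leukocyte markers, with a Pearson correlation of 0.92 over the 12 libraries with their log2 summed level. All 12 of these markers were called higher in Gal1+ than in Gal1- cells, with a median log2 fold change of 4.49, and all 12 lower in PDGFR+ than in Gal1+ cells, with a median of -1.59. In PDGFR- against Gal1+ cells 3 of the 12 were called lower (median -1.30). In PDGFR+ against Gal1- cells all 12 were called higher (median 2.85). *Id2* was called in neither of these comparisons in the main fit. Within the PDGFR- population, T5 had the highest *Id2* level (7.90) and the highest pan-leukocyte sum (3700 CPM), and T4 the lowest of both (5.99 and 811 CPM). All 8 microglia and all 8 macrophage markers were also called higher in Gal1+ than in Gal1- cells, with sums of 1700 to 2322 and 2665 to 3596 CPM in Gal1+ libraries against 75.6 to 136 and 24.0 to 86.1 CPM in Gal1- libraries. The correlation of *Id2* was -0.91 with the log2 summed level of the astrocyte markers and -0.85 with that of the OPC markers. The part of leukocyte or other RNA in the *Id2* result was not tested.

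*Id1*, a target used as a readout of BMP signaling and strong in endothelial cells, was at 2.62, 1.98 and 2.75 in Gal1+, 1.38, 1.70 and 2.61 in Gal1-, 2.04, 2.07 and 2.38 in PDGFR+ and 2.84, 2.29 and 3.66 in PDGFR- libraries of T3, T4 and T5. The Gal1+ and Gal1- libraries overlapped, and their difference was 0.55 (95% interval -0.030 to 1.13, adjusted p = 0.0940), higher in 3 of 3 tumors. Its highest mean was in PDGFR- cells, which exceeded Gal1- cells by 1.03 (SE 0.26, adjusted p = 0.0211). That call was lost without the tumor block (adjusted p = 0.142), in a fit of only these 2 populations (0.0715), without T3 or T5 (0.133 and 0.141) and without the PDGFR- library of T5 (0.88, adjusted p = 0.0990). PDGFR+ over PDGFR- cells gave -0.76 (adjusted p = 0.322), and -0.60 without the PDGFR- library of T5. Endothelial markers, of which 7 of 8 were called higher in Gal1+ and in PDGFR- cells than in Gal1- cells, summed to 309 to 368 CPM in Gal1+, 206 to 245 in PDGFR-, 154 to 314 in PDGFR+ and 44.2 to 84.6 in Gal1- libraries. The correlation of *Id1* with their log2 sum was 0.33 over the 12 libraries, below those with the macrophage (0.63) and pan-leukocyte (0.60) sums. All 12 pan-leukocyte markers were called higher in PDGFR- than in Gal1- cells, with a median log2 fold change of 3.22, and the PDGFR- library of T5, with a pan-leukocyte sum of 3700 CPM, had the highest *Id1* level of all 12 libraries. The part of these cells in the *Id1* values was not tested.

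*Id3*, often expressed together with *Id1*, had the narrowest range of population means, 3.09 to 3.70. It was at 3.75, 2.998 and 2.53 in Gal1+, 3.74, 3.47 and 3.65 in Gal1-, 3.90, 3.64 and 3.57 in PDGFR+ and 3.98, 3.14 and 3.24 in PDGFR- libraries of T3, T4 and T5. The Gal1+ libraries spread over more than 1 log2 unit and overlapped every other population. PDGFR+ over Gal1+ cells gave 0.61 (SE 0.21, adjusted p = 0.0451), higher in 3 of 3 tumors. Of 12 alternatives only 3 kept this call, and it was lost without the tumor block (adjusted p = 0.178) and without T3, T4 or T5 (0.0679, 0.170 and 0.237). Gal1+ over Gal1- cells gave -0.53 (95% interval -0.996 to -0.056, adjusted p = 0.0543). Over the libraries *Id3* had a Pearson correlation of 0.82 with the log2 summed level of the OPC markers. The part of these cells in the *Id3* values was not tested.

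*Id4*, which acts in neural stem cells and in the timing of oligodendrocyte differentiation, followed the tumor rather than the population. In T4 it was at 4.01 in Gal1+, 3.94 in Gal1-, 2.54 in PDGFR+ and 5.53 in PDGFR- cells. In T3 and T5 it was at 1.45 and 1.06 in Gal1+, -0.17 and 1.84 in Gal1-, 0.98 and 2.10 in PDGFR+ and 1.53 and 1.92 in PDGFR- cells. All 4 libraries of T4 lay above all 8 others, with tumor means of 0.95 in T3, 4.01 in T4 and 1.73 in T5. The 4 libraries of T4 come from 1 animal, so this is a description. *Id4* was called in none of the 6 comparisons, and its log2 fold change of Gal1+ over Gal1- cells was 0.30 (95% interval -0.99 to 1.60). Its gene overlaps *A330033J07Rik* and *Gm49291* on the opposite strand in GENCODE, and only 2 of its 12 recovered read values were whole numbers, so its values are uncertain.

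The variance of each gene over the 12 libraries was divided between population and tumor. The population accounted for 90.2% of the variance of *Bmp4* and the tumor for 1.57%, and only 1.95% of all genes had a larger population share. For *Id4* the tumor accounted for 74.4% and the population for 9.26%, and 3.26% of all genes had a larger tumor share. *Bmpr1b* (76.2%), *Id2* (72.4%) and *Bmp7* (66.2%) had population shares above the median of all genes, 50.5%. *Id3* (44.2%), *Id1* (39.0%), *Bmp7* (26.7%) and *Bmpr1a* (24.7%) had tumor shares above the median, 22.4%. *Bmp2* had the largest remainder, 51.2%.

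**Figure D4:**
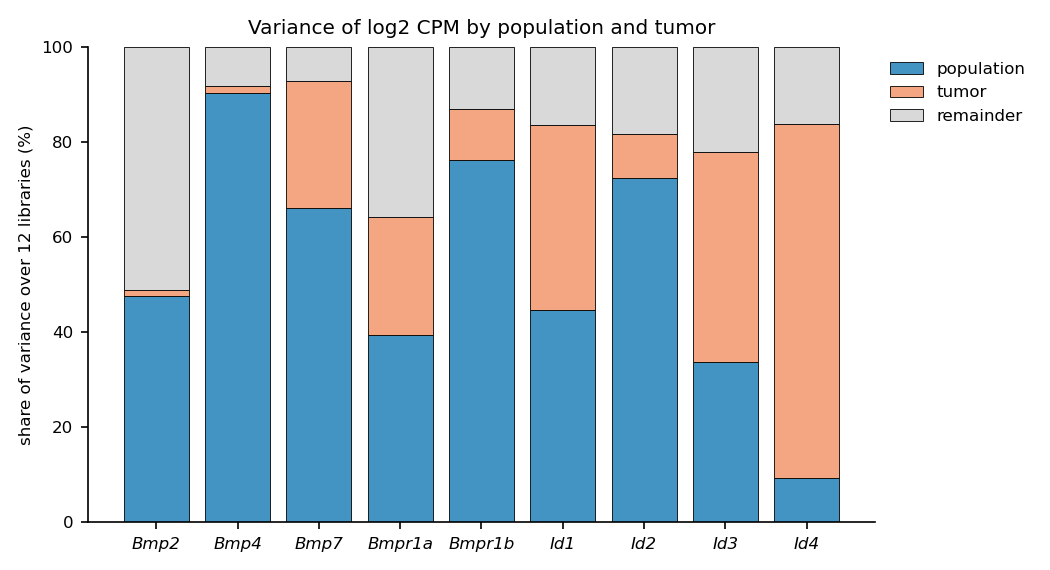
Share of the variance of log2 CPM over 12 libraries (vertical axis, percent) that went with the population, the tumor and neither, for each of the 9 genes. *Bmp4* has the largest population share (90.2%) and *Id4* the largest tumor share (74.4%).

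In PDGFR+ against Gal1- cells, where 8.27% of all genes were called, 0 of the 9 members were called, and 1, *Id2*, had an unadjusted p under 0.05 (17.3% of all genes), at 0.87 (adjusted p = 0.162). Its interval was 0.17 to 1.57. *Id2* was called in a fit of only these 2 populations (adjusted p = 0.000570) and when the PDGFR- library of T5, which is not part of this comparison, was left out (adjusted p = 0.0225). *Bmp7* at -0.36 (95% interval -1.03 to 0.32), *Bmpr1a* at -0.20 (-0.84 to 0.45) and *Bmpr1b* at -0.27 (-1.14 to 0.60) had intervals that included 0, so differences of these sizes were not detectable here. *Bmp4* at -0.64 (-1.40 to 0.13) was lower in 3 of 3 tumors, and *Bmp2* at 0.64 (-0.028 to 1.31) was higher in 3 of 3. The groups did not overlap for *Bmp4*, *Bmp2* or *Id2*, and the share of all genes without overlap is not given here. In PDGFR- against Gal1- cells 4 of the 9 were called, beside 23.1% of all genes, with *Id1* and *Id2* higher (16.2% of all genes) and *Bmp7* and *Bmpr1b* lower (6.88%). Of these, limma called 1, *Bmp7*, without the PDGFR- library of T5, and 0 without the tumor block, without tumor T5 or in a fit of only these 2 populations. The share of all genes called in these other fits is not given here.

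Other genes of the pathway were taken from a list of 71, of which 51 were in the table. In Gal1+ against Gal1- cells 32 of the 51 were called, 16 higher and 16 lower, a share of 62.7% beside 58.2% of all genes, with a median log2 fold change of 0.029. In PDGFR+ against Gal1+ cells 22 were called (43.1%, beside 38% of all genes), 13 higher and 9 lower, and in PDGFR+ against PDGFR- cells limma called 0, with 5 at an unadjusted p under 0.05 beside 11.8% of all genes. By role, the Smads and intracellular regulators had 7 called higher and 2 lower of 12 in Gal1+ cells, the receptors and coreceptors 3 higher and 5 lower of 9, and the 3 bHLH partners of the Id proteins were all lower. Of all genes, 28.9% were called higher and 29.3% lower in this comparison.

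Of the other ligands 3 were measured, and *Bmp6*, a ligand that controls hepcidin in the liver, had a log2 fold change of 1.91 in Gal1+ over Gal1- cells (SE 0.45, adjusted p = 0.00534). *Bmp1*, which despite its name is a metalloproteinase that cleaves procollagen and chordin, was lower by a log2 fold change of -1.15 (adjusted p = 0.0174). Both calls were lost without the tumor block (adjusted p = 0.0858 and 0.0880), without T3 (0.0812 and 0.0931) and without T5 (0.0527 and 0.130). Among the receptors, *Acvrl1*, the endothelial type I receptor of BMP9 and BMP10, was higher by 4.52 (SE 0.38, adjusted p = 3.93e-05), and *Eng*, its coreceptor endoglin, by 2.95 (SE 0.20, adjusted p = 3.93e-05). In this comparison 7 of 8 endothelial and all 12 pan-leukocyte markers were called higher too, with median log2 fold changes of 2.44 and 4.49. In PDGFR- libraries of T3, T4 and T5 *Acvrl1* was at 4.82, 4.88 and 6.31 and *Eng* at 5.01, 5.73 and 5.24. The endothelial sums there were 227, 206 and 245 CPM and the pan-leukocyte sums 1349, 811 and 3700 CPM. The part of these cells in either gene was not tested. *Neo1*, the receptor neogenin, and *Rgma*, a coreceptor that binds it, were lower, with log2 fold changes of -2.35 (adjusted p = 8.47e-05) and -2.02 (adjusted p = 0.000936).

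Extracellular antagonists and modulators went both ways in Gal1+ against Gal1- cells, with 3 of 16 called higher and 3 lower. This share of 37.5% was below that of all genes, 58.2%, which also went both ways (28.9% higher and 29.3% lower). *Chrd*, or chordin, which binds BMP ligands, had a log2 fold change of -1.95 (adjusted p = 0.00135), and *Smoc1*, a secreted matrix protein that inhibits BMP signaling, had one of -2.72 (adjusted p = 0.000240). *Kcp*, a chordin-like protein that enhances BMP signaling, was higher by 3.01 (adjusted p = 5.90e-05), and *Smoc2* by 1.49 (adjusted p = 0.0243). *Smoc2* was not called without T3 (0.75, adjusted p = 0.224), without T5 (0.0600) or in a fit of only these 2 populations (0.0753).

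The inhibitory Smads were both higher in Gal1+ than in Gal1- cells. *Smad6*, which blocks BMP type I receptors, was higher by 3.95 (SE 0.49, adjusted p = 0.000140), from a mean of -1.16 ± 0.57 log2 CPM (SD, n = 3) in Gal1- to 2.78 ± 0.31 in Gal1+ cells. *Smad7*, which blocks BMP and TGF-β receptors, was higher by 1.64 (SE 0.26, adjusted p = 0.000548). *Skil*, a corepressor of Smads, and *Pmepa1*, which sequesters receptor-regulated Smads of the TGF-β branch, were higher by 2.08 (adjusted p = 7.96e-05) and 1.83 (adjusted p = 3.93e-05). In PDGFR+ against Gal1+ cells *Smad7*, *Skil* and *Pmepa1* were called lower, at -0.86, -1.13 and -0.96, while *Smad6* was at -1.34 (adjusted p = 0.0544). The log2 fold changes of these 4 genes had the sign of that of *Id2* in both comparisons. In Gal1+ against Gal1- cells all 12 pan-leukocyte, all 8 macrophage and 7 of 8 endothelial markers were called higher too, with median log2 fold changes of 4.49, 6.20 and 2.44, and in PDGFR+ against Gal1+ cells 12, 8 and 0 of them were called lower. Their part in these 4 genes was not tested.

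Other targets were called in both directions in Gal1+ against Gal1- cells, 2 higher and 2 lower of 8. This was 50%, beside 58.2% of all genes (28.9% higher and 29.3% lower). *Hey1* and *Hey2*, bHLH repressors that also answer to Notch, had log2 fold changes of -1.47 (adjusted p = 0.00215) and -2.05 (adjusted p = 0.00170). *Runx2*, the osteoblast factor, and *Gata2*, a factor of blood progenitors and endothelium, were higher by 1.87 (adjusted p = 0.000869) and 1.88 (adjusted p = 0.00285). The call of *Gata2* was lost without T5 (1.56, adjusted p = 0.0522). The E proteins *Tcf4*, *Tcf12* and *Tcf3*, which the Id proteins bind, were lower, at -0.99 (adjusted p = 0.000303), -0.95 (adjusted p = 0.00193) and -0.77 (adjusted p = 0.00319), and *Tcf3* was not called without the tumor block (adjusted p = 0.0841). All 3 were called higher in PDGFR+ than in Gal1+ cells, at 0.74, 0.64 and 0.61.

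**Figure D5:**
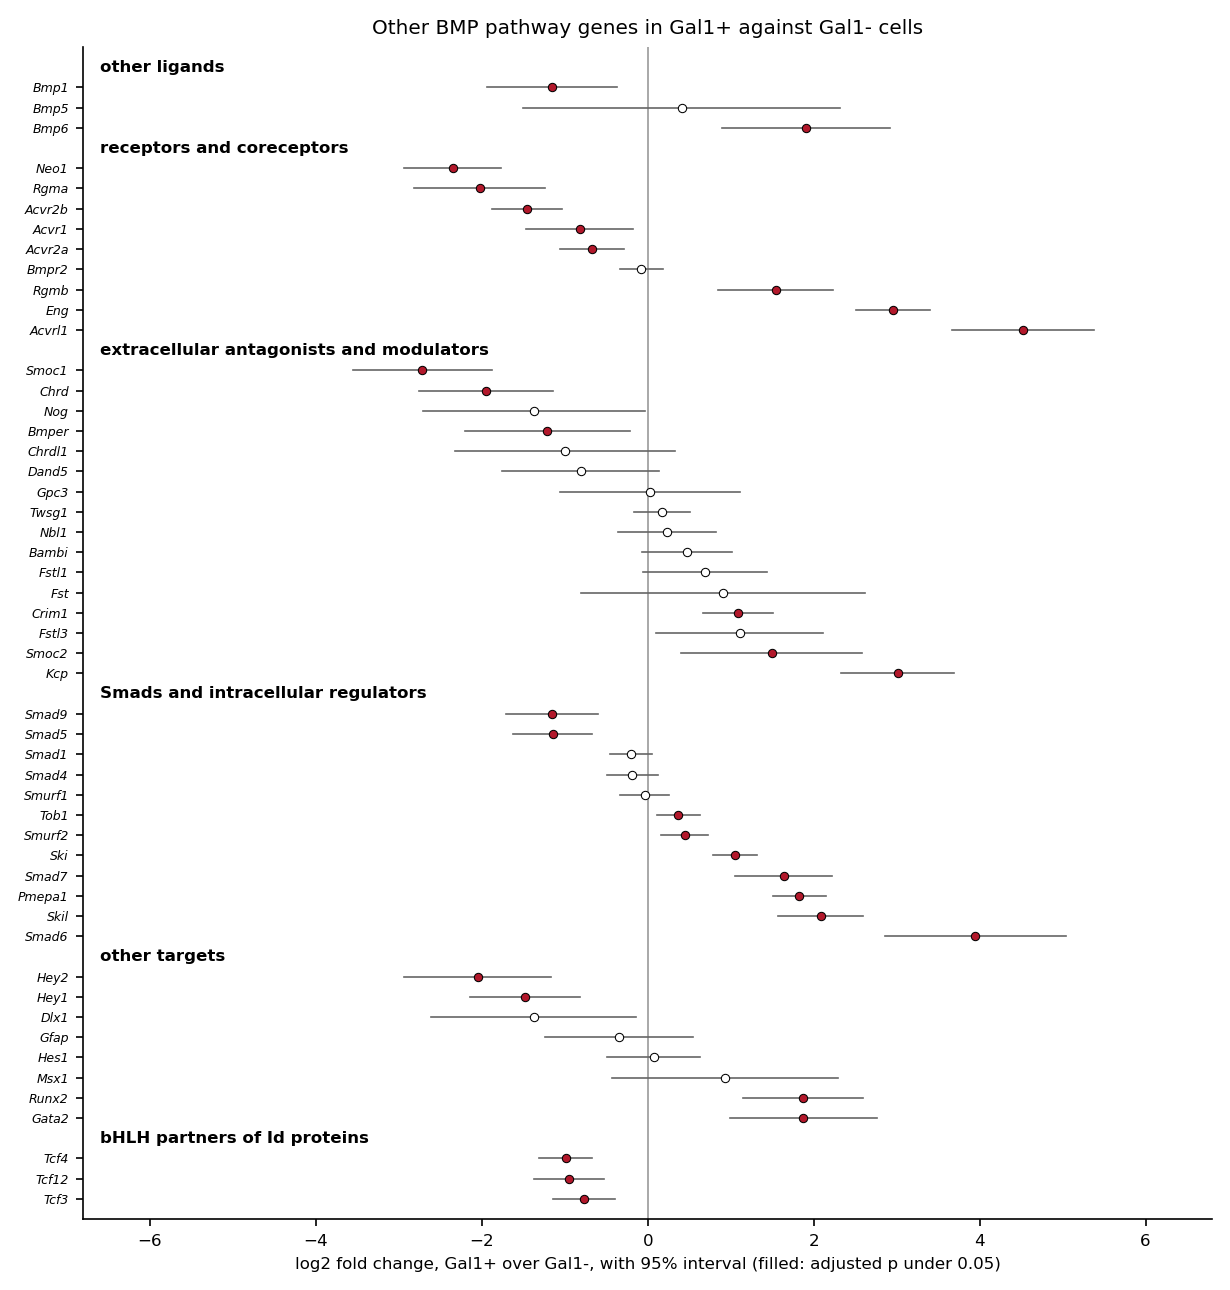
Log2 fold changes of Gal1+ over Gal1- cells (horizontal axis) for 51 other genes of the pathway (vertical axis), grouped by role. Points are limma estimates, lines are 95% intervals, and the 32 filled points have an adjusted p under 0.05. The receptors reach from *Neo1* at -2.35 to *Acvrl1* at 4.52, and the 3 bHLH partners are all below 0.

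The genes whose log2 CPM followed each member most closely over the 12 libraries are given with Pearson's r as a description, since the libraries share tumors and populations. *Bmp4* was followed by *Mycl* (0.974), *Tspan2* (0.973) and *Enpp6* (0.959). *Bmp7* was followed by *Mmp15* (0.997), *Pcdhgb2* (0.996) and *Ptprg* (0.993), and *Bmp2* less closely by *Has1* (0.856), *Il23a* (0.832) and *Crim1* (0.813). *Bmpr1a* was followed by *Ndfip1* (0.975), *Specc1* (0.969) and *Prkci* (0.965), and *Bmpr1b* by *Lpo* (0.971), *Dner* (0.971) and *Faim2* (0.964). *Id2* was followed by *Cd69* (0.987), *Msrb1* (0.986) and *Zfp691* (0.985), *Id1* by *Ramp3* (0.956), *Ccr7* (0.956) and *Serpinb6b* (0.934), and *Id3* by *Coq6* (0.965), *Marcksl1* (0.964) and *Xylb* (0.949). *Id4* was followed by *Proser2* (0.985), *Abca8a* (0.982) and *Fxyd1* (0.977). Among the members themselves, *Bmp7* and *Bmpr1a* (0.85) and *Bmp7* and *Id3* (0.83) were the pairs with the highest positive r, and *Id2* had its lowest values with *Bmpr1a* (-0.85) and *Bmp7* (-0.85).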

How the data were processed

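Cells of 4 sorted populations from 3 tumors were profiled by total RNA sequencing with a stranded pico-input kit. Per the labels and the methods, the authors used fastp for trimming, STAR (two-pass) for alignment to mm39 and featureCounts for counting over exons, where a multi-mapping read counts as a fraction. Genes needed more than 1 CPM in 3 or more samples, and TMM scaling and voom followed. The strand setting of the counting is not given in the sources used here. The authors deposited log2 CPM, 18180 genes in 12 libraries, with an offset of 0.5 reads. The lowest value of a library was taken as 0 reads, which gave the reads behind every other value. Between 41.3% and 59.2% of values per library came out whole (within 0.01), so no count test was run. A floor of 3 reads lies at a log2 CPM of -2.99 to -1.44 and covers counting error only.

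A linear model of population and tumor was fitted to all genes with limma 3.58.1 in R 4.3.3, with a moderated test that allowed for a mean-variance trend (residual degrees of freedom 6, prior 3.49) and Benjamini-Hochberg adjustment over all 18180 genes. The 6 contrasts share libraries. Libraries of a tumor come from the same animal, and after group means were subtracted the 18 same-tumor pairs had a mean correlation of 0.486 (0.140 to 0.662) across genes, so the tumor was kept as a block. The script was tested on simulated data. Levels per kilobase use exon lengths from GENCODE M21, and promoters are RefSeq's of GRCm38.p6. No coordinates of mm39 are given.

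The members and lists were chosen with earlier results of these data known. An allele of the mice and a gene of the oligodendrocyte marker list are not reported here, and the marker sums leave that gene out. Named are all members, up to 4 called pathway genes per role with the largest log2 fold change of Gal1+ over Gal1- cells, and the 3 genes most correlated with each member, predicted genes left out. Alternatives were a fit without the block, a fit of only the 2 groups compared, no trend, voom weights on recovered reads, log2(CPM + 1), a filter at a log2 CPM above 1 in 3 samples, quantile normalization, centring on the library median, each tumor left out and, chosen after seeing the data, the PDGFR- library of T5 left out. Those for the other pathway genes were also added then. Figures were drawn with matplotlib 3.10.9.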

Additional observations from a re-analysis of the deposited data

How the results depend on the processing

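The tumor block decided part of the calls: without it the members called were 4 in Gal1+ against Gal1- cells, 3 in PDGFR+ against Gal1+, 1 in PDGFR- against Gal1+ and 0 in PDGFR- against Gal1- cells, and the other pathway genes called were 10, 0, 4 and 5 in PDGFR+ against Gal1+, PDGFR- against Gal1+, PDGFR+ against Gal1- and PDGFR- against Gal1- cells. In a fit of only the 2 groups compared, 1 member was called in PDGFR+ against Gal1- and 0 in PDGFR- against Gal1- cells, and 15 and 7 other pathway genes. PDGFR+ against Gal1+ cells had 3 members called without the mean-variance trend and 3 after quantile normalization, and PDGFR- against Gal1+ cells 1 without the trend. With a tumor or the PDGFR- library of T5 left out, the members called ranged from 3 to 6 in PDGFR+ against Gal1+, 0 to 5 in PDGFR- against Gal1+, 0 to 1 in PDGFR+ against Gal1- and 0 to 3 in PDGFR- against Gal1- cells, and the other pathway genes, in the same order, from 8 to 24, 0 to 20, 0 to 10 and 5 to 11. In the main fit the other pathway genes called were, in this order, 22, 12, 9 and 16. In PDGFR+ against PDGFR- cells limma called 0 members and 0 other pathway genes under all 12 alternatives. The share of all genes called under each alternative is not given here. These counts therefore cannot show whether the members or the other pathway genes changed more than the whole table. The calls of *Bmp4*, *Bmp7*, *Bmpr1b* and *Id2* in Gal1+ against Gal1- cells, and of *Bmp4*, *Bmp7* and *Bmpr1b* in PDGFR+ against Gal1+ cells, were made under all 12. Of 648 log2 fold changes of members under alternatives, 570 kept their direction and side of the threshold, 44 lost and 12 gained a call, and 22 changed sign, all of genes that were not called. Signs changed for *Bmp2* in PDGFR+ over Gal1+ cells (-0.044 with voom weights, -0.16 after quantile normalization, -0.14 after centring), and in PDGFR+ over Gal1- cells for *Id3* (-0.027 and -0.031 after these scalings) and *Id4* (-0.47 with voom weights, -0.13 with log2(CPM + 1), -0.26 and -0.11 after the scalings). With libraries left out, values crossed 0 for *Bmpr1a* (-0.071 to 0.79) and *Id2* (-0.67 to 0.27) in PDGFR+ over PDGFR-, *Id4* in Gal1+ over Gal1- (-0.35 to 0.84), *Bmp2* (-0.19 to 0.38) and *Id4* (-0.97 to 0.29) in PDGFR+ over Gal1+, *Bmpr1a* in PDGFR- over Gal1+ (-0.096 to 0.65), *Id4* in PDGFR+ over Gal1- (-0.57 to 0.71) and *Bmp2* in PDGFR- over Gal1- cells (-0.11 to 0.55). Quantile normalization moved the median of all genes by -0.13 and -0.14 in PDGFR+ and PDGFR- over Gal1- cells, and centring by -0.16, -0.14 and -0.11 in PDGFR+ and PDGFR- over Gal1+ and PDGFR+ over Gal1- cells. Some alternatives had fewer samples, and the cause of these changes was not tested. In the main fit the tumor was a block, so the spread between tumor means was fitted apart from the population differences. With 3 tumors the SE of *Id4* was still 0.58 in Gal1+ over Gal1- cells, with an interval of -0.99 to 1.60. Differences of *Id4* within that interval were not excluded.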
